A study of Rattus norvegicus with 8 samples.

Results

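Receptors and a receptor adaptor through which hormones and peptides tell the hypothalamus about energy stores were examined in hypothalamic RNA of cannabis-exposed and air-treated rats. The genes were chosen by name: Lepr, Insr, Ghsr, Mc3r, Mc4r, Npy1r, Npy2r, Npy5r, Glp1r and Irs2. Of these 10 genes, 9 had at least 1 polyadenylation site among the sites analysed here, and none carried the symbol Npy2r, which is therefore not described. The 9 genes held 33 of the 64313 sites with a gene symbol, and the files held 18003 gene symbols and 98356 sites in all. Every rat was an adult male Long-Evans rat. The 4 cannabis-exposed rats inhaled vaporized cannabis plant matter over 10 min, and the 4 air-treated controls sat in the same kind of chamber with an empty vaporizer. All had eaten freely before exposure, food was then withheld, and the hypothalamus was dissected 1 hr after exposure. The deposited design text narrows the tissue to its mediobasal part. Each rat gave 1 library by whole transcriptome termini site sequencing (WTTS-Seq), in which every read comes from the 3′ end of 1 polyadenylated RNA, whatever the length of the transcript. Replicate numbers follow the labels, which run from 1 to 4 for the controls and skip 4 for the cannabis-exposed rats (1, 2, 3 and 5).

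Hunger and satiety signals from the body reach the hypothalamus mostly through the arcuate nucleus. Leptin from fat and insulin from the pancreas restrain the Agrp and Npy neurons and act on the Pomc neurons, whereas ghrelin from the stomach excites the Agrp neurons. Pomc gives rise to melanocortin peptides that act on the receptors Mc3r and Mc4r, and Agrp blocks these receptors, while neuropeptide Y acts on its own receptor family to promote feeding. Cannabinoids raise food intake, and the comparison asks whether the 3′ ends of these receptor transcripts differed shortly after exposure.

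The libraries had from 1159811 reads on sites in air control replicate 4 to 3706778 in cannabis replicate 2, with 1919709 in cannabis replicate 1 and 1941129 in air control replicate 2. Values are normalized counts, the reads on a site divided by the size factor of its library, and 1 read was worth from 0.664 to 1.99 normalized counts. Markers of the hypothalamus were present, with summed levels of the arcuate list (Agrp, Pomc, Ghrh, Kiss1, Tbx3) from 95.3 to 185 normalized counts in controls and from 132 to 207 in cannabis-exposed rats. Of 16 marker lists, 14 had no gene with P under 0.01 in limma, among 45 of 52 listed genes that had a site, and none of those genes passed in edgeR or DESeq2 either. The summed endothelium markers ranged from 81.1 to 88.0 normalized counts in controls and from 93.0 to 115 in cannabis-exposed rats, without overlap. Most of this sum was Flt1, with 71.0 ± 7.32 and 95.7 ± 12.7, control group first (SD, n = 4), and its groups overlapped. Pecam1 went the other way, with a log2 difference of -0.67. Cldn5 had a log2 difference of 0.19, with means of 6.25 ± 6.63 and 4.32 ± 1.30 (SD, n = 4). Groups overlapped for Pecam1 and Cldn5 as well. Genes of the other two lists passed. The midbrain dopamine markers (Slc6a3, Th, En1, Slc18a2) summed to 650 to 844 normalized counts in controls and 140 to 327 in cannabis-exposed rats, and 3 of the 4 were lower at P under 0.01. The paraventricular and supraoptic markers (Avp, Oxt, Sim1, Otp) summed to 1664 to 4085 and 5122 to 7541. Of these 4, 2 were higher at the same threshold, Avp and Oxt, against 0.278% of all gene totals called in limma in either direction. Most of the paraventricular and supraoptic sum was Avp, with 1952 ± 996 and 4934 ± 1383, control group first (SD, n = 4). Otp and Sim1 did not pass, with log2 differences of 0.43 and -0.21, and their groups overlapped. The part of these differences in the results on the receptors was not tested. In tissue of mixed cells, fewer cells of a type and less RNA per cell cannot be told apart.

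The receptors were rare to moderately abundant transcripts. Lepr, Irs2, Npy1r and Insr made up an upper group, and the other 5 genes had few reads. The gene total, the sum over all sites of a gene, averaged 77.8 normalized counts over the 8 libraries for Lepr, the leptin receptor, a level above that of 75.1% of gene symbols. Irs2, the adaptor that carries the signal of the insulin receptor into the cell, averaged 65.6. Npy1r, a receptor for neuropeptide Y, averaged 40.5, and Insr, the insulin receptor, 27.8. Mc3r averaged 11.1, Ghsr, the ghrelin receptor, 8.07, Npy5r, a second feeding-related receptor of neuropeptide Y, 7.28, Mc4r 4.23 and Glp1r, the receptor for glucagon-like peptide, 3.13. Neighbours in this order had overlapping ranges over the libraries except Insr and Mc3r, where Insr was higher in 8 of 8 libraries. Lepr was above Irs2 in 5 of 8 libraries and Mc4r above Glp1r in 3 of 8, so that neither pair had a fixed order. Of the 6 G protein-coupled receptors, only Npy1r had more than 23 reads in any library. The 9 genes together had 2177 of the 20734916 reads on sites.

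**Figure D1:**
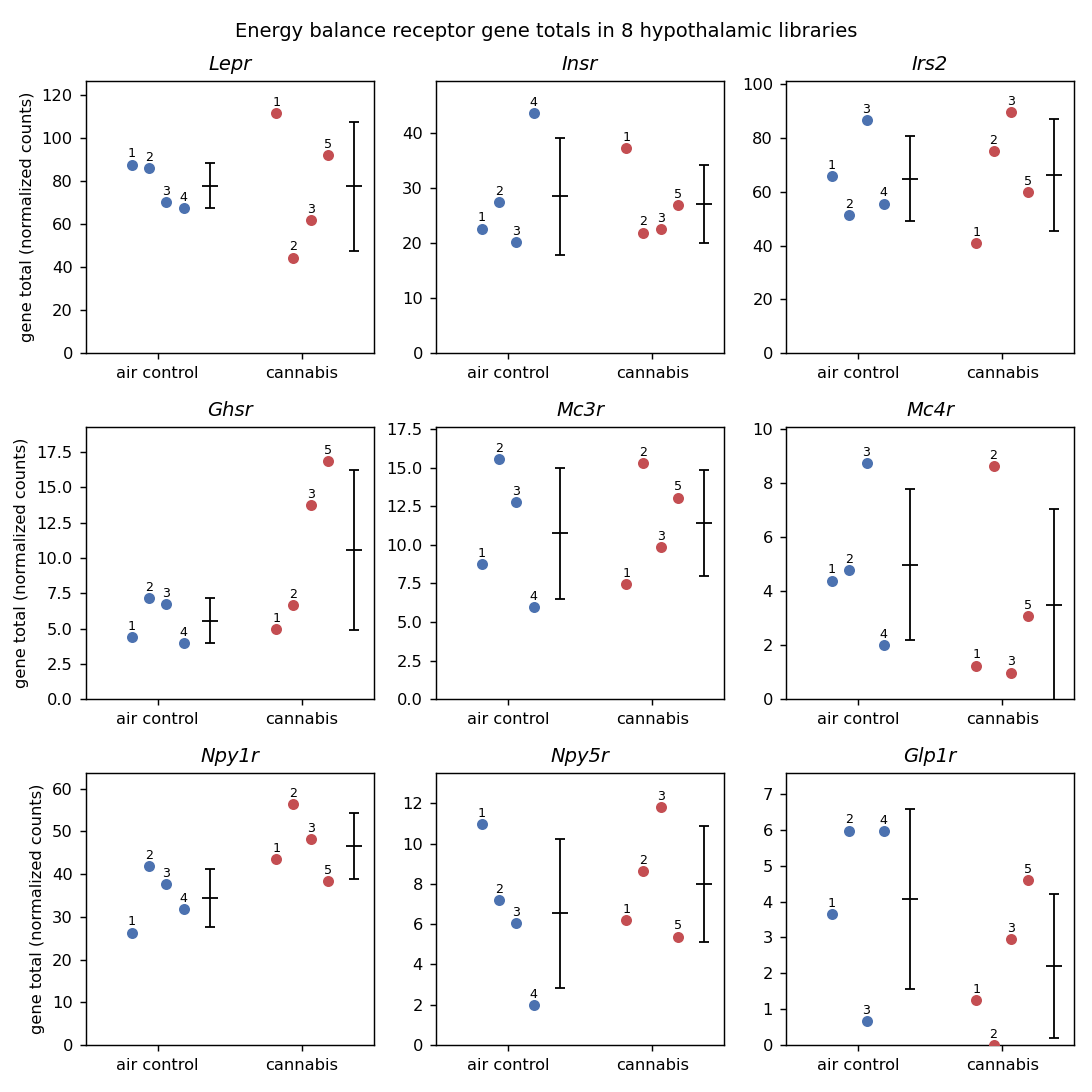
Gene totals of the 9 genes in normalized counts (vertical axes, starting at 0) for air-treated controls (blue) and cannabis-exposed rats (red). Points are libraries with their replicate numbers, and black bars are the mean ± SD of 4 libraries, drawn down to 0 at most. In every panel the 2 groups overlap.

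None of the 9 gene totals passed the study's threshold between the groups. In limma, 0 of 9 had P under 0.01 against 0.278% of the 18003 gene totals tested, and 0 of 9 passed in edgeR and DESeq2, against 0.3% and 0.423% of gene totals. At P under 0.05 there were also 0 of 9 in each of the 3 tools, against 2.41% of all gene totals in limma. Groups overlapped for all 9, and did not overlap for 1.98% of all gene totals. The estimates were higher in cannabis-exposed rats for 5 genes and lower for 4, with a median log2 difference of 0.0047 against 0.053 over all gene totals. The adjusted P of each of the 9 over the 18003 totals was 0.999. An exact permutation test of 4 against 4 rats cannot give a P under 0.0286.

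The leptin receptor was the most abundant of the 9 and had nearly equal group means. Lepr totals were 87.7, 86.2, 70.5 and 67.5 normalized counts in air control replicates 1, 2, 3 and 4, and 112, 44.5, 62.0 and 92.2 in cannabis replicates 1, 2, 3 and 5. The cannabis-exposed rats lay on both sides of the controls, with the highest and the lowest value of the 8 libraries. The means were 78.0 ± 10.5 and 77.6 ± 30.1 (SD, n = 4), a log2 difference of -0.083 (standard error 0.292, limma P = 0.781, exact permutation P = 0.8). The 95% interval of the fold between groups, cannabis over control, ran from 0.611 to 1.46.

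The insulin receptor and its adaptor gave the same picture. Insr totals were 22.7, 27.5, 20.1 and 43.7 normalized counts in control replicates 1 to 4 and 37.3, 21.9, 22.6 and 26.9 in cannabis replicates 1, 2, 3 and 5. The highest values of either group came from air control replicate 4 and cannabis replicate 1, which had the fewest reads on sites, and the part of depth in this was not tested. The log2 difference of Insr was -0.036 (standard error 0.329, limma P = 0.915, exact permutation P = 0.857), with an interval of the fold from 0.597 to 1.59. Irs2 totals were 65.8, 51.5, 86.6 and 55.6 in controls and 41.0, 75.1, 89.5 and 59.9 in cannabis-exposed rats. Low and high libraries of Irs2 occurred in both groups, and the log2 difference was 0.0047 (standard error 0.289, limma P = 0.987, exact permutation P = 0.971) with an interval of the fold from 0.652 to 1.54. For Lepr, Insr and Irs2, a change of 2-fold in either direction thus lay outside the 95% interval of the gene total.

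The ghrelin receptor had the largest positive estimate, carried by 2 rats. Ghsr totals were 4.39, 7.18, 6.71 and 3.97 normalized counts in controls and 4.97, 6.64, 13.8 and 16.9 in cannabis-exposed rats. Cannabis replicates 3 and 5, with 14 and 22 reads, lay above every control, and cannabis replicates 1 and 2 lay within the range of the controls. The log2 difference was 0.71 (standard error 0.47, limma P = 0.154), and the exact permutation test, two-sided, gave P = 0.171. The interval of the fold ran from 0.811 to 3.29. Without cannabis replicate 5 the log2 difference was 0.45.

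The melanocortin receptors, on which the Pomc peptides act, had few reads. Mc3r totals were 8.77, 15.6, 12.8 and 5.96 normalized counts in controls and 7.45, 15.3, 9.84 and 13.1 in cannabis-exposed rats, a log2 difference of 0.11 (standard error 0.41, limma P = 0.796, exact permutation P = 0.743). Mc4r totals were 4.39, 4.79, 8.73 and 1.99 in controls and 1.24, 8.64, 0.984 and 3.07 in cannabis-exposed rats. Mc4r was therefore read from 1 to 13 times in a library, with the highest value in 1 library of each group. The log2 difference of Mc4r was -0.59 (standard error 0.61, limma P = 0.347, exact permutation P = 0.371). Intervals of the fold were wide, from 0.582 to 2.0 for Mc3r and from 0.267 to 1.64 for Mc4r. Without cannabis replicate 2 the log2 difference of Mc4r was -1.06, and without cannabis replicate 3 it was -0.30.

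Npy1r came closest to a separation of the groups. Its totals, from a single site, were 26.3, 41.9, 37.6 and 31.8 normalized counts in controls and 43.5, 56.5, 48.2 and 38.4 in cannabis-exposed rats. Cannabis replicates 1, 2 and 3 lay above every control, and cannabis replicate 5 lay above 3 of the 4 controls. The means were 34.4 ± 6.80 and 46.6 ± 7.68 (SD, n = 4), a log2 difference of 0.44 (standard error 0.27, limma P = 0.129), and the exact permutation test, two-sided, gave P = 0.0571. The interval of the fold ran from 0.905 to 2.02. Npy5r lies beside Npy1r in the genome by the RefSeq gene order of a later assembly, and its totals were 11.0, 7.18, 6.04 and 1.99 in controls and 6.21, 8.64, 11.8 and 5.38 in cannabis-exposed rats. The Npy5r groups overlapped. The log2 difference of Npy5r was 0.37 (standard error 0.50, limma P = 0.478, exact permutation P = 0.543), and -0.026 without air control replicate 4, which had 1 Npy5r read.

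Glp1r, whose activation lowers food intake, was the rarest of the 9. Its totals were 3.66, 5.99, 0.671 and 5.96 normalized counts in controls and 1.24, 0.0, 2.95 and 4.61 in cannabis-exposed rats. No library held more than 6 reads of it, and cannabis replicate 2 held none, which allows up to 1.99 normalized counts, the value of 3 reads in that library (counting error only). The log2 difference was -0.73 (standard error 0.68, limma P = 0.300, exact permutation P = 0.343), with an interval of the fold from 0.219 to 1.66. It was -0.26 without cannabis replicate 2 and -1.20 without control replicate 3.

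**Figure D2:**
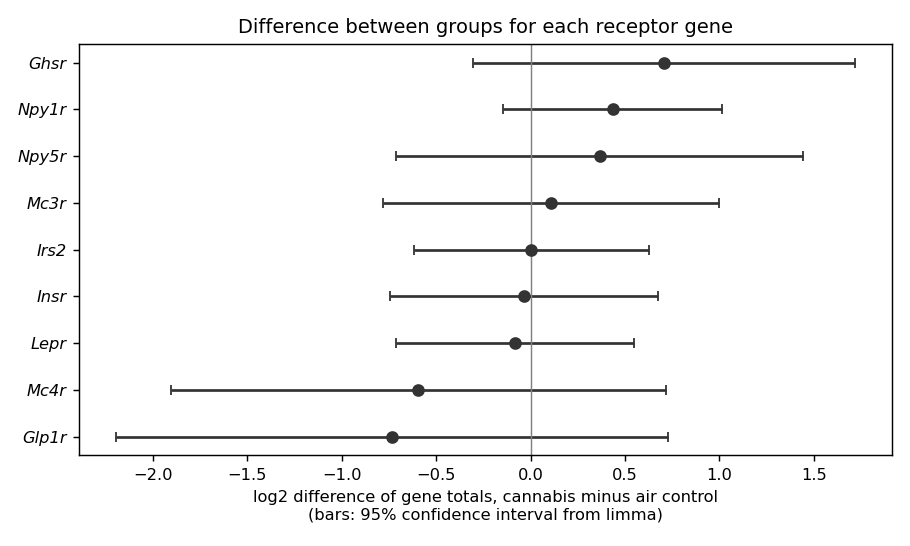
Log2 difference of the gene totals, cannabis minus air control (horizontal axis), for the 9 genes, with 95% confidence intervals from limma over 8 libraries. All 9 intervals cross 0, and they are narrowest for Lepr, Irs2 and Npy1r and widest for Mc4r and Glp1r.

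Reads of most of these genes were spread over several sites of very unequal use. Lepr, whose transcripts are known to end differently for the long and short receptor forms, had 9 sites, Insr 7, Irs2 6, Npy5r 3, Ghsr, Mc3r and Mc4r 2 each, and Npy1r and Glp1r 1 each. Sites are numbered here by their order in the files, since their positions were not analysed here. Only 4 of the 33 sites averaged at least 10 normalized counts: Lepr site 1, Npy1r site 1 and Irs2 sites 1 and 2. The median of the 33 sites was 24 reads summed over the 8 libraries, against 34 for all sites, and 20 of the 33 had no read in at least 1 library. Lepr site 1 held 67.4% of all Lepr reads, and Irs2 site 1 held 70.1% of all Irs2 reads. Insr had no dominant site, since its most used site held 24.7% of its reads.

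**Figure D3:**
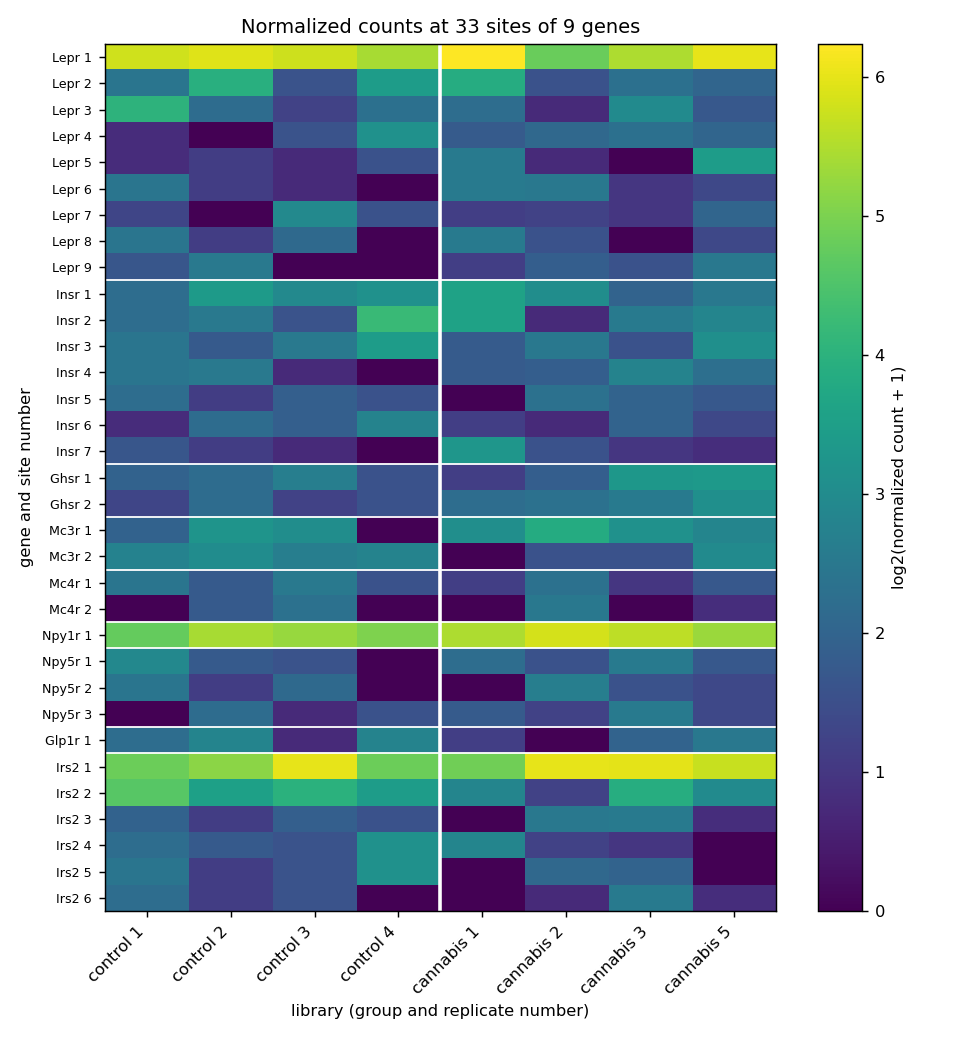
Normalized counts of the 33 sites (rows, gene and site number) in the 8 libraries (columns, controls left of the white line), as log2(normalized count + 1) on a colour scale. Lepr site 1, Npy1r site 1 and Irs2 site 1 are bright in all libraries, and most other sites are dark or at 0 in some library of either group.

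No site of the 9 genes passed the study's threshold. In the limma fit of all sites, 0 of 33 had P under 0.01, against 0.381% of the 98356 sites tested, and 0 of 33 in edgeR and DESeq2, against 0.526% and 0.316%. At P under 0.05 there was 1 site in limma, Mc3r site 2, against 3.03% of all sites, and 0 in edgeR and DESeq2. Estimates were above 0 at 13 of the 33 sites and below 0 at 20, with log2 differences from -1.29 to 1.16 and a median of -0.11, against 0.013 over all sites. Groups did not overlap at 1 of the 33 sites (3.03%), Ghsr site 2, and at 2.0% of all sites, 0.992% being higher after cannabis.

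At the dominant Lepr site the groups differed by less than the SD of either one. Lepr site 1 had 74, 50, 80 and 21 reads in control replicates 1 to 4 and 60, 41, 44 and 82 in cannabis replicates 1, 2, 3 and 5, or 52.3 ± 7.63 and 52.0 ± 20.9 normalized counts (SD, n = 4). Its share of the Lepr reads was 67.3% ± 6.98 in the control group and 66.5% ± 3.77 in the cannabis group (SD, n = 4), with P = 0.771 by the exact permutation test. Lepr site 2 held 7.15% and site 3 6.26% of the Lepr reads, and the other 6 sites had from 20 to 23 reads each over all libraries. The log2 differences of Lepr sites 2 and 3 were -0.41 and -0.52 (exact permutation P = 0.6 and 0.543). At site 3, air control replicate 1 alone held 21 of the 42 reads, and at site 5 cannabis replicate 5 held 13 of 22. In the 7 Insr sites the log2 differences ran from -0.61 at site 6 to 0.78 at site 7, with 17 reads at site 7 in all and 7 of them in cannabis replicate 1, and limma P was at least 0.257.

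Irs2 was the only one of the 9 genes with a pair of sites that averaged at least 10 normalized counts, and their estimates had opposite signs. Irs2 site 1 had 27.8, 34.7, 63.1 and 27.8 normalized counts in controls and 28.6, 63.8, 62.0 and 51.5 in cannabis-exposed rats. Irs2 site 2 had 23.4, 10.8, 14.8 and 9.93 in controls and 6.21, 1.33, 13.8 and 6.91 in cannabis-exposed rats. At site 2, 3 of the 4 cannabis-exposed rats lay below every control, and cannabis replicate 3 lay within the range of the controls. Taken alone, site 1 had a log2 difference of 0.43 (standard error 0.41, limma P = 0.303, exact permutation P = 0.286) and site 2 of -1.16 (standard error 0.56, limma P = 0.0504, exact permutation P = 0.0857). Without cannabis replicate 2 the difference at site 2 was -0.66. The other 4 Irs2 sites, with 16 to 23 reads each, had log2 differences from -1.06 to -0.17.

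As a share of Irs2 reads, site 2 gave 32 of 90, 9 of 43, 22 of 129 and 5 of 28 reads in control replicates 1 to 4, and 5 of 33, 2 of 113, 14 of 91 and 9 of 78 in cannabis replicates 1, 2, 3 and 5. The mean share was 22.8% ± 8.63 in the control group and 11.0% ± 6.38 in the cannabis group (SD, n = 4). Every control had a higher share than every cannabis-exposed rat (exact permutation test, P = 0.0286), and shares of 1.6% of the 10252 sites of this kind did not overlap between the groups, 0.839% being lower after cannabis. This was 1 of 8 shares tested in the 9 genes, and it was added after its values were seen. The test of site usage in limma compares the change of a site with that of the other tested sites of its gene. Only sites 1 and 2 of Irs2 passed its filter of a mean of at least 10, so their results mirror each other. It gave a log2 difference of 1.60 for site 1 against site 2, beside the exact permutation test of the share. The limma P was 0.0344, with an adjusted P of 1.00 over the 10252 sites. Neither Irs2 site was called at P under 0.01, against 0.41% of these sites, and 2.35% had P under 0.05. With cannabis replicate 2 left out, which held 2 of its 113 reads at site 2, the difference in usage was 0.97. A usage test of all sites with a gene symbol, chosen after seeing the data, compared each site with all others of its gene. There the log2 difference was 1.14 for Irs2 site 1 and -0.78 for site 2. Both were smaller in size than with only sites 1 and 2 tested.

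The estimates at the Mc3r sites also had opposite signs, on fewer reads. Mc3r site 1 had 2.92, 8.38, 7.39 and 0.0 normalized counts in controls and 7.45, 13.3, 7.87 and 6.14 in cannabis-exposed rats, and site 2 had 5.85, 7.18, 5.37 and 5.96 in controls and 0.0, 1.99, 1.97 and 6.91 in cannabis-exposed rats. At site 2 all controls and cannabis replicate 5 stood apart from cannabis replicates 1, 2 and 3, which had 0, 3 and 2 reads. The log2 difference was 1.16 at site 1 (standard error 0.64, limma P = 0.0846, exact permutation P = 0.229) and -1.29 at site 2 (standard error 0.61, limma P = 0.0476, adjusted P = 1.00, exact permutation P = 0.114), and the latter was -0.78 without cannabis replicate 1. Without control replicate 4, which had 0 of 3 Mc3r reads at site 1, the difference at site 1 was 0.47. Site 1 held 4 of 12, 7 of 13, 11 of 19 and 0 of 3 Mc3r reads in controls and 6 of 6, 20 of 23, 8 of 10 and 8 of 17 in cannabis-exposed rats. The share of site 1 was 36.3% ± 26.5 and 78.5% ± 22.5 (SD, n = 4), and the groups overlapped, with P = 0.0857 by the exact permutation test. In a usage test of all sites with a gene symbol, chosen after seeing the data, site 1 against site 2 had a log2 difference of 2.44 with an adjusted P = 1.00 in limma. In that test 2 of 31 receptor gene sites had P under 0.05, these mirrored Mc3r sites, against 3.35% of 57287 sites, and 0 of 31 had P under 0.01, against 0.611%.

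Ghsr site 2 was the one site whose groups did not overlap. It had 1.46, 3.59, 1.34 and 1.99 normalized counts in controls and 3.73, 3.99, 4.92 and 7.68 in cannabis-exposed rats, from 2, 3, 2 and 1 reads against 3, 6, 5 and 10. The gap between the highest control and the lowest cannabis-exposed rat, 3.59 and 3.73, was smaller than the worth of 1 read in any library, and both had 3 reads. The log2 difference was 0.98 (standard error 0.55, limma P = 0.0869, exact permutation test P = 0.0286). At Ghsr site 1 cannabis replicates 3 and 5 were high, at 8.86 and 9.22, and cannabis replicate 1 was below every control, at 1.24, with a log2 difference of 0.32 (standard error 0.60, limma P = 0.603, exact permutation P = 0.629).

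**Figure D4:**
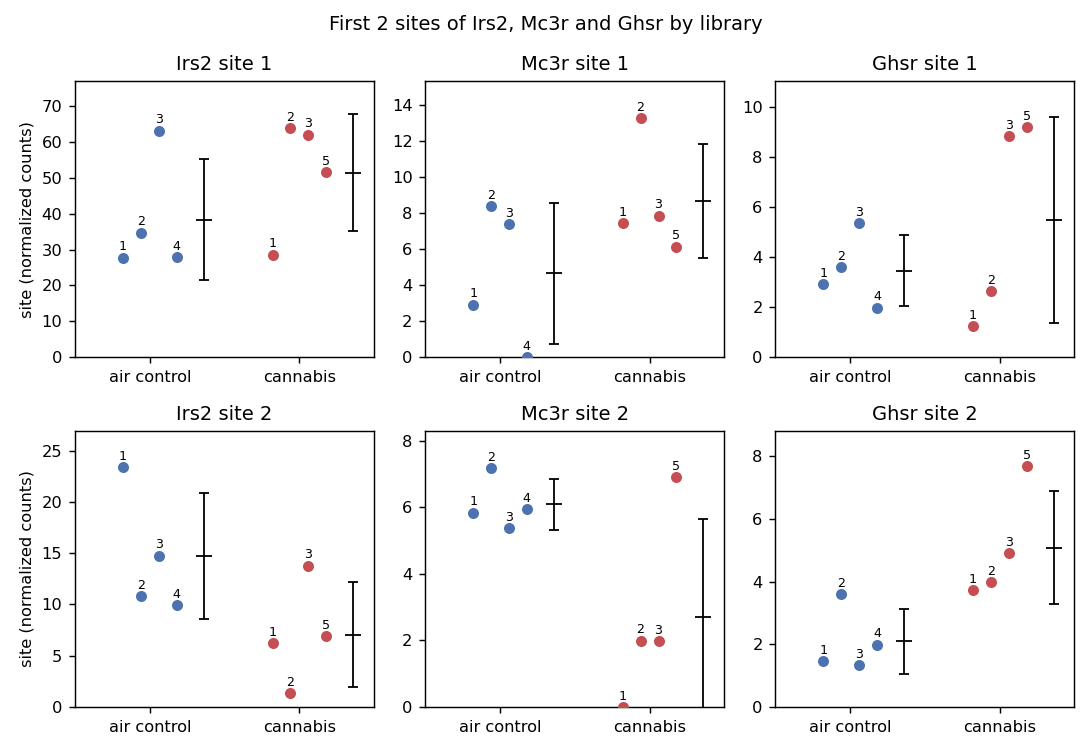
Normalized counts at sites 1 and 2 of Irs2, Mc3r and Ghsr (vertical axes, starting at 0) in air-treated controls (blue) and cannabis-exposed rats (red). Points are libraries with replicate numbers, and black bars are mean ± SD of 4 libraries, drawn down to 0 at most. Site 2 of Irs2 and Mc3r sits lower in 3 of 4 cannabis-exposed rats than in any control, and Ghsr site 2 lies higher in all 4.

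The remaining sites of the peptide receptors held between 16 and 28 reads each. Mc4r sites 1 and 2 had log2 differences of -0.52 and -0.19, and site 2 was without a read in 4 of the 8 libraries. The shares of the first listed site were 76.0% ± 27.8 and 80.3% ± 25.6 for Mc4r, 31.7% ± 24.6 and 41.9% ± 15.1 for Npy5r, 61.7% ± 14.5 and 46.0% ± 17.2 for Ghsr and 25.6% ± 9.81 and 23.4% ± 9.81 for Insr, control group first (SD, n = 4). For these 4 genes the groups overlapped, with P from 0.257 to 1.00 by the exact permutation test. At Npy5r the log2 differences of sites 1, 2 and 3 were 0.46, -0.029 and 0.60, with limma P of at least 0.373.

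Genes that act with these receptors gave no call in the same fit. Of 84 genes in 5 lists, 78 had a site, and 0 of 78 had P under 0.01 in limma, edgeR or DESeq2, against 0.278% of all gene totals in limma. In limma 1 of 78 had P under 0.05, against 2.41% of all gene totals. Estimates were higher in cannabis-exposed rats for 50 and lower for 28. The split of estimates over all gene totals, called or not, was not counted. The list medians lay between 0.0028 for insulin signalling and 0.34 for ligands and peptides on the log2 scale, beside 0.053 for all genes.

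Among the ligands, 5 of 8 had a site, and Npy, Gcg and Lep are not described. Agrp, the melanocortin blocker of hunger neurons, had 31.4, 34.7, 26.2 and 53.6 normalized counts in controls and 59.6, 51.2, 34.4 and 56.1 in cannabis-exposed rats, a log2 difference of 0.47 (limma P = 0.137, exact permutation P = 0.143) with overlapping groups. Pomc, the precursor of the melanocortins, had a log2 difference of 0.34 (limma P = 0.261, exact permutation P = 0.314). For Cartpt, a satiety peptide, the log2 difference was 0.36 (limma P = 0.134, exact permutation P = 0.2). None of the 5 ligands passed P under 0.01.

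Of the leptin signalling genes all 12 had a site. Socs3, an inhibitor of leptin receptor signalling whose own transcription leptin induces, was the single gene of the 78 with P under 0.05. It had 1.46, 0.0, 2.69 and 0.0 normalized counts in controls and 9.93, 2.66, 3.94 and 3.84 in cannabis-exposed rats, from 2, 0, 4 and 0 reads against 8, 4, 4 and 5. The groups overlapped by a narrow margin, at air control replicate 3 and cannabis replicate 2 with 4 reads each. The log2 difference was 1.68 (standard error 0.62, limma P = 0.0176, adjusted P = 0.999), the exact permutation test gave P = 0.0571, and edgeR and DESeq2 gave P = 0.0535 and 0.0586. A pseudocount of 5 normalized counts in place of 1 gave a log2 difference of 0.72. With a library left out, the unadjusted limma P of Socs3 ran from 0.00894, without control replicate 3 and under 0.01, to 0.0621. Sh2b1, an adaptor that enhances leptin signalling, had a log2 difference of 0.41 (limma P = 0.129, exact permutation P = 0.171), and Stat5b, a transcription factor downstream of cytokine receptors, of -0.73 (limma P = 0.141, exact permutation P = 0.229), and of -0.39 without control replicate 4.

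In the insulin signalling list all 22 genes had a site, 11 higher and 11 lower. Grb10, an adaptor that dampens insulin receptor signalling, had 65.3 ± 24.4 normalized counts in the control group and 94.5 ± 14.9 in the cannabis group (SD, n = 4), a log2 difference of 0.58 (limma P = 0.0532, exact permutation P = 0.114). With a library left out, the unadjusted limma P of Grb10 ran from 0.00896, without control replicate 3, which was the highest control, to 0.131. Shc1, an adaptor, had a log2 difference of 0.43 (limma P = 0.230, exact permutation P = 0.2), and of 0.17 without control replicate 4. Of the 15 accessory and trafficking genes 14 had a site, with estimates of 0.29 for Sdc3, a syndecan that facilitates Agrp action, -0.21 for Atrnl1, a relative of the melanocortin modulator attractin, and 0.25 for Leprot, a transcript from the Lepr locus (exact permutation P = 0.2, 0.114 and 0.686). Leprot shares its locus with Lepr, so reads of the genes may be split between them by the site assignment.

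Of 27 other energy balance receptors and related genes 25 had a site. Cnr1, the cannabinoid receptor of the brain, had 191, 207, 194 and 203 normalized counts in controls and 242, 248, 291 and 240 in cannabis-exposed rats. The groups of Cnr1 did not overlap (exact permutation test, P = 0.0286), as for 1.98% of all gene totals, and the log2 difference was 0.36 (standard error 0.18, limma P = 0.0728, adjusted P = 0.999). Cckbr, a cholecystokinin receptor, had a log2 difference of 0.77 (limma P = 0.0792, exact permutation P = 0.143), and Gfral, the receptor for the stress hormone Gdf15, of 0.69 (limma P = 0.301, exact permutation P = 0.457), and of 0.028 without control replicate 4.

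**Figure D5:**
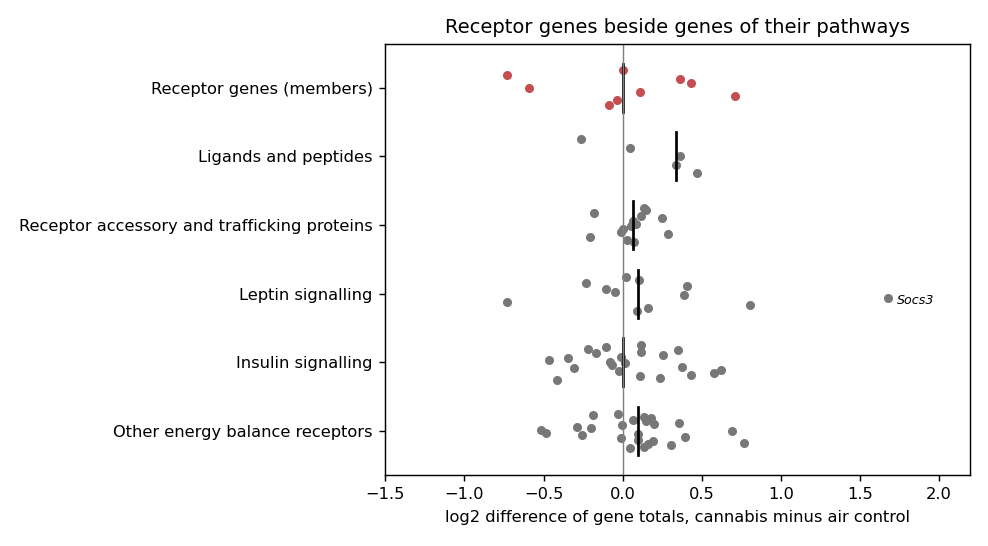
Log2 difference of gene totals, cannabis minus air control (horizontal axis), for the 9 receptor genes (red) and for the measured genes of 5 lists (grey), each point 1 gene, with black lines at the list medians. Socs3, at 1.68, is the one gene beyond 1 in either direction.

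Of the 4 receptor genes with a mean of at least 20 normalized counts, Lepr varied most over the 8 libraries, with an SD of 0.41 of its log2 total. The totals closest to it in pattern, out of 9625 genes with at least that mean, were those of Acad10, Ddx52 and Neurl2. Their centred log2 totals differed from that of Lepr by 0.17, 0.19 and 0.20 as a root mean square over the 8 libraries. Whether other genes have neighbours as close was not tested.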

How the data were processed

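WTTS-Seq libraries of hypothalamic RNA from 4 cannabis-exposed and 4 air-treated rats were used. The authors quality-filtered the reads, removed the T run at their start, aligned them to Rnor_6.0 with TMAP and merged nearby ends into sites. Sites needed 16 reads or more, and symbols came from Cuffcompare. The deposited values are a signal per site, reads divided by the library's size factor. Each value was a whole multiple of the library's smallest value (largest deviation 0.00012 reads), and 100.0% of values gave whole reads within 0.05. On these reads, as an alternative, edgeR called 54 gene totals and 517 sites and DESeq2 76 and 310 at P under 0.01.

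Files were joined by row order and sites with the same symbol were summed. Sites without a symbol entered the site fit and no gene total. log2(normalized count + 1) was fitted with limma 3.58.1 (lmFit, eBayes with trend, diffSplice for usage of sites with a mean of at least 10) over all features without covariates, with Benjamini-Hochberg adjustment. Log2 differences and folds are on this scale, on which the pseudocount can shrink changes of low features. The threshold of P under 0.01 follows the study. Exact permutation tests are two-sided. R 4.3.3, edgeR 4.0.16, DESeq2 1.42.0, Python 3.11.15, pandas 2.3.3, numpy 2.4.6 and matplotlib 3.10.9 were used.

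Limma, and edgeR for gene totals, were tried on simulated reads with known changes before use. Changed features averaged at least 20 reads, with a log2 change of 2. At P under 0.01 limma called 93% of changed gene totals, 89% of changed sites and 65.6% in the usage test. As 29 of the 33 receptor gene sites averaged under 10 normalized counts, the trial does not show what would be missed at them. Members and gene lists were chosen with earlier results of these data known. Named were all members, their sites with at least 5% of the gene's reads, list genes with P under 0.01 or the 3 lowest P of a list, and the 3 genes most like the most variable member. One list gene that this rule names is not reported here. The labels do not say how rats were housed or processed together, so P values measure the spread between these samples. No pair of the 28 pairs of libraries agreed within sampling noise (chi-square per degree of freedom at least 4.29).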

Additional observations from a re-analysis of the deposited data

How the results depend on the processing

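Results were recomputed with pseudocounts 0.5 and 5, with features averaging 10 or more, equal library totals, limma without trend, edgeR, DESeq2, the replicate block and each library left out. Receptor gene totals, sites and site usage called at P under 0.01 were 0 under every alternative that was run. Sites called at P under 0.05 were 1 in the main limma fit and 0 in edgeR and DESeq2. They were not counted under the other alternatives. Usage was not refitted without trend or in the count tools, and its mean filter is that of the main test. Genes with a mean under 10 drop out under that filter. Over all features, gene totals called (50) were 76 in DESeq2, 98 without trend, 29 with the mean filter, 21 with the replicate block, 1 at an adjusted P under 0.1 and from 30 (without control replicate 1) to 90 (without cannabis replicate 1) with a library left out. Sites called (375) were 44 with the filter, 198 with the block, 1 at an adjusted P under 0.1 and from 227 to 617. The split of all gene totals was 18 higher and 32 lower, 12 and 42 in edgeR, 12 and 64 in DESeq2 and 51 and 47 without trend. List genes called were 1 without trend (Socs3) and 0 to 2 with a library left out, 2 without control replicate 3 (Socs3 and Grb10).

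Signs turned only in differences far from any threshold. Irs2 had -0.037 in DESeq2, -0.033 in edgeR and -0.016 at equal totals, and Lepr site 1 had 0.0053 in edgeR. With the replicate block, fitted on the 6 libraries with shared numbers, values were 0.18 for Insr, -0.19 for Mc3r, -0.029 for Irs2, 0.025 and 0.19 for Insr sites 1 and 2 and -0.17 for Ghsr site 1. The block changed no call in the receptor genes. Libraries with the same number had correlations of deviations from -0.23 to 0.089 over 3 pairs, and 0 of 3 controls correlated best with their own number. Between groups, pairs with different numbers ran from -0.39 (control replicate 4, cannabis replicate 2) to 0.49 (control replicate 4, cannabis replicate 1). With a library left out, ranges were -0.28 to 0.15 for Lepr, -0.19 to 0.19 for Insr, -0.12 to 0.30 for Mc3r, -0.026 to 0.64 for Npy5r, -0.16 to 0.21 for Irs2, -0.30 to 0.18 and -0.93 to 0.0062 for Lepr sites 1 and 3, -0.42 to 0.12, -0.60 to 0.36, -0.58 to 0.012 and -0.47 to 0.30 for Insr sites 1, 2, 3 and 5, -0.75 to 0.24 for Mc4r site 2, -0.064 to 0.91 and -0.50 to 0.43 for Npy5r sites 1 and 2, and -0.13 to 0.52 for Leprot. Without a turn of sign, ranges were -0.88 to -0.044 for Lepr site 2, 0.28 to 1.13, -0.99 to -0.32 and 0.24 to 1.06 for Insr sites 4, 6 and 7, 0.0069 to 0.74 for Ghsr site 1, -0.78 to -0.33 for Mc4r site 1, 0.23 to 0.96 for Npy5r site 3, 0.31 to 0.70 for Irs2 site 1, 0.26 to 0.57 for Cartpt and 0.19 to 0.54 for Pomc. The cause of these moves was not tested.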
